A study of Mus musculus with 8 samples.

Results

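The genes described here are 36 genes of the focal adhesion and of actomyosin, the actin and non-muscle myosin II machinery that pulls on it. They were chosen by name, for the known roles of their proteins, from the 13937 genes in the deposited count table. The choice was made with earlier results of these data known, which bears on the comparisons with all genes below. All 36 were found in that table and were expressed highly enough to be tested. By role they fall into 8 kinases and signalling scaffolds (PTK2, SRC, BCAR1, ILK, LIMK1, ROCK1, ROCK2 and MYLK), 10 proteins that link integrins to actin or crosslink actin (TLN1, VCL, FERMT2, TNS1, TNS3, FLNA, FLNC, ACTN1, ACTN4 and PARVA), 12 adaptors of the LIM-domain kind (PXN, ZYX, LIMS1, TES, CSRP1, CSRP2, PDLIM5, PDLIM7, LPP, FHL2, FBLIM1 and TGFB1I1), 3 small GTPases (RHOA, RHOB and RHOC), 2 myosin heavy chains (MYH9 and MYH10) and the transcription factor SRF. Symbols stand in capitals in that table and are written below in the mouse style (Actn1 for ACTN1).

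Focal adhesions are the assemblies by which a cell grips the matrix. Integrins span the membrane, talin and kindlin bind their tails inside the cell, vinculin and alpha-actinin carry the load to actin filaments, and LIM-domain proteins such as zyxin gather where the filaments are under tension. The small GTPases act through the kinases ROCK1 and ROCK2 on myosin II, and in astrocytes this machinery is known for its part in flattened shape, stress fibres, migration and the remodelling of reactive cells.

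Bulk RNA was sequenced from primary neonatal astrocytes of WT mice and of mice lacking RGC-32 (RGC-32 KO, called KO as in the sample labels), both of the C57BL/6 strain and taken at postnatal day 1. Brain cells freed of meninges were grown in serum for 2 weeks, oligodendrocyte precursors and neurons were shaken off, and the adherent cells were starved of serum overnight in all groups. Each of the 4 groups (control and TGF-β in either genotype) holds 2 biological replicates, and the TGF-β groups received 10 ng/ml for 24 h. The labels do not say how many pups or dishes stand behind a replicate, so the p-values below measure only the spread between these libraries.

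Each library held between 14920561 and 18956038 counts. Counts of the deleted gene, Rgcc, were 80 to 362 in the 4 WT libraries and 26 to 64 in the 4 KO libraries, without overlap. The WT minus KO difference of Rgcc was a log2 value of 0.97 ± 0.53 (SE) in controls (edgeR, adjusted p = 0.780) and 2.54 ± 0.48 after TGF-β (adjusted p = 0.133). Transcripts of the astrocyte markers were abundant in every library (Gfap at 1196 CPM or more, CPM being counts scaled by library size), and the 10 markers summed to 4396 and 4632 CPM in WT control, 3565 and 3439.8 in WT TGF-β, 5071 and 5781 in KO control, and 4263 and 4555 in KO TGF-β. Markers of other cells were also present. Over the 8 libraries the microglia or macrophage markers summed to 1129 to 1614 CPM. Those of the oligodendrocyte lineage summed to 286 to 376 CPM and those of ependymal cells to 250 to 456 CPM. Sums for neurons and endothelial cells lay between 66.9 and 142 CPM. The 9 meningeal fibroblast markers summed to 3449.7 and 4076 CPM in WT control and 7342 and 8501 in WT TGF-β, and to 2859.9 and 2599 in KO control and 5406 and 5599.99 in KO TGF-β. Most of that sum was the collagen genes Col1a1 and Col1a2, and of the 8 markers tested 4 rose past the fold limit defined below in both genotypes (Col1a1, Col1a2, Crabp2 and Aldh1a2). Crabp2 rose by a log2 value of 2.35 ± 0.62 in WT and 2.23 ± 0.64 in KO and Aldh1a2 by 1.04 ± 0.26 and 0.86 ± 0.25, whereas Dcn and Pdgfra fell in both genotypes and Lum lay between 2.75 and 5.07 CPM in all 8 libraries. The 5 mural cell markers analysed of 9 summed to 222 to 226 CPM in WT control and 624 to 713 in WT TGF-β, and to 193 to 201 CPM in KO control and 455 to 539.6 CPM in KO TGF-β. Cspg4 rose by 3.13 ± 0.25 in WT and 2.69 ± 0.25 in KO, Notch3 by 1.12 ± 0.08 and 1.08 ± 0.08, and Pdgfrb by 1.02 ± 0.10 and 0.89 ± 0.10. Vtn gave -0.64 ± 0.23 in WT (adjusted p = 0.0655) and fell in KO (-1.39 ± 0.22), and Rgs5 was at 3.76 to 5.15 CPM throughout. These collagen and mural markers moved in the same direction as the adhesion genes, and their part in the results was not tested. In bulk RNA, fewer cells of a type and less RNA per cell cannot be told apart.

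TGF-β raised a large share of these 36 adhesion and actomyosin genes in both genotypes and lowered none of the 36 past the threshold. A gene counted as up-regulated past the fold limit when its log2 fold change came to at least 0.6 with an adjusted p under 0.05 by edgeR's quasi-likelihood test over 13509 genes. In WT astrocytes 12 of the 36 did so, against 7.72% of all genes tested, and 0 fell past that limit, against 5.65%. In KO astrocytes 10 did so, against 6.61%, and 0 fell, against 4.93%. DESeq2 gave the same counts. With an adjusted p under 0.05 and no limit on size, 22 members rose in WT (18.6% of all genes) and 23 in KO (16.6%), and 0 fell in either (14.3% and 11.8% of all genes). These counts rested in part on single libraries, with 14 in WT without WT TGF-β replicate 2 and 12 in KO without KO TGF-β replicate 2. An unadjusted p under 0.05 was reached by 29 members in WT (44.3% of all genes) and 25 in KO (41.2%), and the 1 of these below 0 was Flnc in KO. The median log2 fold change of the 36 was 0.39 in WT, where that of all genes was -0.0048, and 0.37 in KO, where that of all genes was 0.0031. The fitted change was above 0 for 35 of the 36 in WT (49.4% of all genes) and for 34 in KO (50.5%).

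**Figure D1:**
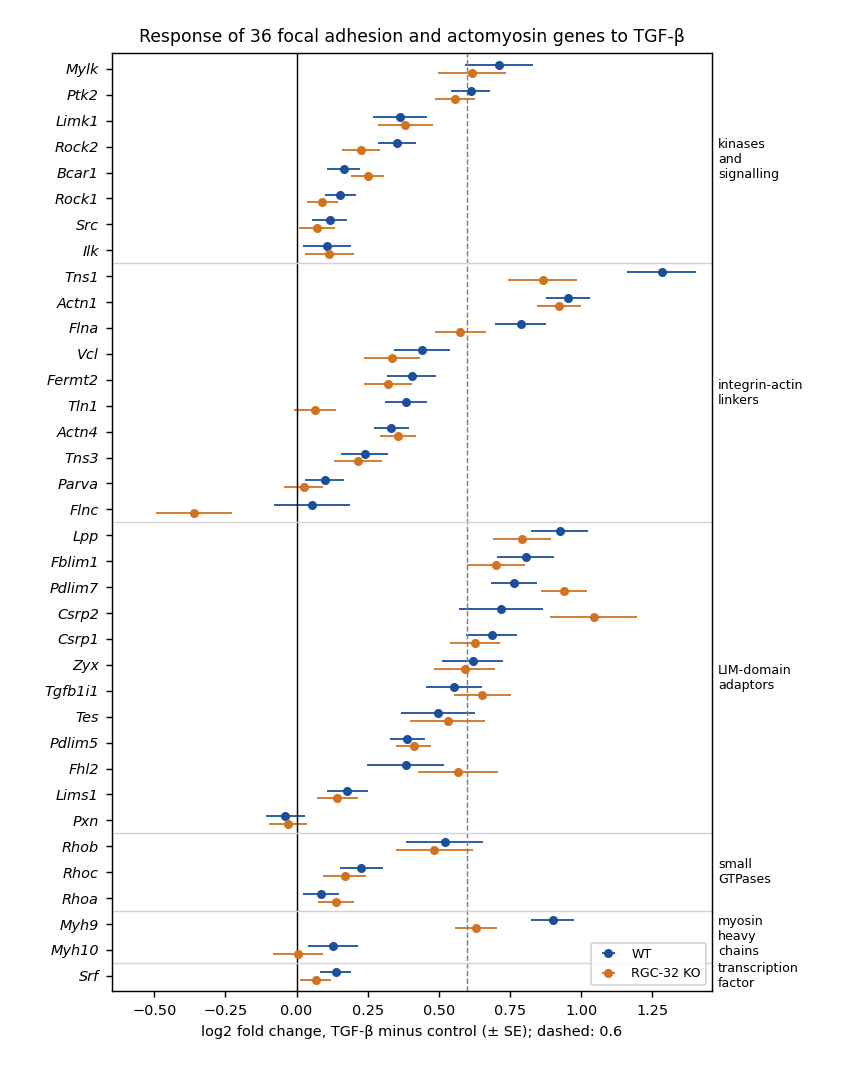
The log2 fold change (TGF-β minus control, with its SE) of each of the 36 genes in WT (blue) and KO (orange) astrocytes, grouped by role, with the fold limit of 0.6 dashed. Most points lie to the right of 0 in both genotypes, Tns1 and Actn1 lie farthest right in WT, Csrp2 lies farthest right in KO, and Flnc lies to the left of 0 in KO only.

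The shift could be read from the libraries themselves. In WT astrocytes both TGF-β libraries lay above both control libraries for 31 of the 36 genes, against 35.4% of all genes tested, and in KO astrocytes for 30, against 34.3%. It was so in both genotypes for 29 genes, in WT alone for Src and Tln1, in KO alone for Ilk, and in neither for Flnc, Myh10, Parva and Pxn. Together the 36 genes held 1.08% ± 0.0086 (SD, n = 2) of all counts in WT control and 1.42% ± 0.0401 in WT TGF-β. In KO astrocytes they held 1.04% ± 0.0477 in controls and 1.28% ± 0.0174 after TGF-β. The plot of the genes by library shows the same order, with the 4 TGF-β libraries set apart from the 4 controls.

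**Figure D2:**
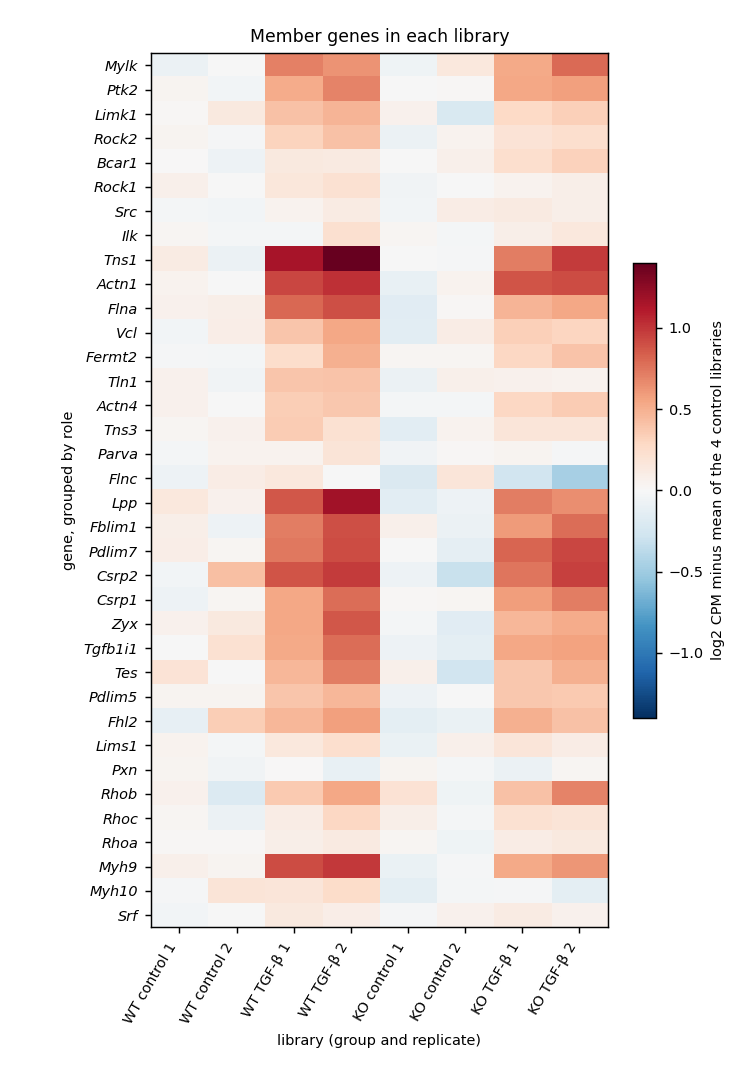
Each row is 1 of the 36 genes and each column 1 of the 8 libraries, coloured by log2 CPM minus the gene's mean over the 4 control libraries (red higher, blue lower). The 4 TGF-β columns are red for most rows, deepest for Tns1 in the WT TGF-β libraries, while the rows of Pxn, Parva, Myh10 and Src stay pale.

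Srf encodes serum response factor, which with its actin-sensing partners drives many cytoskeletal genes. Its level was 79.8 and 81.9 CPM in WT control and 90.1 and 87.9 CPM in WT TGF-β. In KO it was 81.4 and 85.5 CPM in controls and 89.1 and 85.9 CPM after TGF-β. The TGF-β libraries were the higher ones in both genotypes, but the log2 fold changes of 0.14 ± 0.05 (SE) in WT and 0.07 ± 0.05 in KO had adjusted p-values of 0.0887 and 0.389.

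Serum response factor binds the CArG box, and its matches near the start of the members' transcripts are shown because Srf is itself one of the 36 genes. RefSeq promoters (mouse build GRCm38.p6), from 250 bases before to 50 after each transcript start, were at hand for 30 of the 36 genes, as 42 promoters. The CArG box, searched on both strands, was found in 5 of these 42 promoters (11.9%), of the genes Fermt2, Fhl2, Srf and Vcl, and in 535 of all 32851 promoters (1.63%). The windows below are printed 5′ to 3′ on the strand of the gene, with the box in capitals.
Vcl, chr14:20929161-20929190 (+): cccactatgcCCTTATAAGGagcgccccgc
Fermt2, chr14:45530250-45530279 (-): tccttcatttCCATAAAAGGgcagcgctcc
Fhl2, upstream start, chr1:43196838-43196867 (-): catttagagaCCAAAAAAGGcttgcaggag
Fhl2, downstream start, chr1:43163973-43164002 (-): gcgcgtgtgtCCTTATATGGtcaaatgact
Srf, first box, chr17:46556225-46556254 (-): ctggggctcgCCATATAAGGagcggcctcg
Srf, second box, chr17:46556205-46556234 (-): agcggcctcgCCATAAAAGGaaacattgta
The box began 227 bases before the start of Vcl, 204 before that of Fermt2, 96 and 31 before the starts of Fhl2, and 82 and 62 before that of Srf. Of these genes, Vcl and Fermt2 rose in both genotypes, Fhl2 rose in KO, and Srf did not pass the test in either. Among the genes past the fold limit in either genotype, Csrp2, Ptk2 and Tgfb1i1 had no promoter at hand, and none of the others held a box. The other motifs searched on both strands were less apart from all promoters. CATTCC, the core bound by TEAD factors, was in 21.4% of the members' promoters and 14.7% of all. TGANTCA, the AP-1 site, was in 9.52% and 7.81%, and CAGAC, bound by SMAD proteins, was in 21 of the 42 and in 49.6% of all. These are matches of letters, not shown to be bound sites.

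Of the 10 linkers and crosslinkers, 7 rose in WT, 3 of them past the fold limit (Tns1, Actn1 and Flna), and 6 rose in KO, 2 of them past it (Tns1 and Actn1). Actn1 (chr12:80167547-80260371, minus strand, GRCm38) encodes alpha-actinin 1, which bundles actin filaments at adhesions and along stress fibres. It was at 682 and 659 CPM in WT control and 1259 and 1337 CPM in WT TGF-β. It was at 614 and 684 CPM in KO control and 1215 and 1244 CPM in KO TGF-β. All 4 TGF-β libraries stood well above all 4 controls, and the log2 fold change came to 0.95 ± 0.08 in WT (adjusted p = 0.000225) and 0.92 ± 0.08 in KO (adjusted p = 0.000315). Its close relative Actn4 rose less, by 0.33 ± 0.06 in WT (adjusted p = 0.00584) and 0.36 ± 0.06 in KO (adjusted p = 0.00536).

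Tns1 (chr1:73910231-74124449, minus strand), which encodes tensin 1, a protein that ties integrin tails to actin in mature, elongated adhesions, had the largest change of the 36 in WT. It was at 96.9 and 84.3 CPM in WT control and 199 and 242 CPM in WT TGF-β. In KO it was at 88.9 and 88.4 CPM in controls and 147 and 176 CPM after TGF-β. The controls of the genotypes lay in 1 range, and both WT TGF-β libraries lay above both KO TGF-β libraries. The log2 fold change came to 1.28 ± 0.12 in WT (adjusted p = 0.00038), the 394th largest rise of the 13509 genes, and 0.86 ± 0.12 in KO (adjusted p = 0.0022). Tns3, which encodes another tensin, gave 0.24 ± 0.08 (adjusted p = 0.0597) and 0.22 ± 0.08 (adjusted p = 0.0893) and did not pass the test.

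Flna (chrX:74223461-74249820, minus strand) encodes filamin A, the main crosslinker of cortical actin, and gave the highest CPM of the 36. It was at 1893 and 1921 CPM in WT control and 3189.6 and 3395 CPM in WT TGF-β, and at 1636 and 1847 CPM in KO control and 2541 and 2648 CPM in KO TGF-β. The groups did not overlap within either genotype. The log2 fold change came to 0.79 ± 0.09 in WT (adjusted p = 0.000725) and 0.58 ± 0.09 in KO (adjusted p = 0.00323). The second value lies just under the fold limit, which it passed at 0.66 without KO control replicate 2 and at 0.60 without KO TGF-β replicate 1.

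Flnc, which encodes filamin C, the filamin of muscle, did not follow Flna. It was at 139 and 158 CPM in WT control and 163 and 146 CPM in WT TGF-β, which overlapped. It was at 127 and 165 CPM in KO control and 122 and 106 CPM in KO TGF-β, the latter both below the controls. The log2 fold change came to 0.05 ± 0.13 in WT (adjusted p = 0.784) and -0.36 ± 0.13 in KO (unadjusted p = 0.0285, adjusted p = 0.0813). Flnc was the 1 member whose TGF-β libraries both lay below both controls, in KO, where 32.9% of all genes did so.

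Tln1 encodes talin 1, which binds the integrin tail and switches the integrin to its active form. It was at 505 and 469.9 CPM in WT control and 634 and 638 CPM in WT TGF-β, clear of the controls. It was at 457 and 509 CPM in KO control and 506 and 503 CPM in KO TGF-β, inside the range of the controls. Tln1 rose in WT by 0.38 ± 0.07 (adjusted p = 0.00646), while the change in KO was 0.06 ± 0.07 (adjusted p = 0.547), with a 95% interval from -0.11 to 0.23. It was the 1 member that passed the test without a fold limit in WT and not in KO.

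Vcl, which encodes vinculin, the protein that reinforces talin under load, rose from 394 and 431 CPM to 532 and 588 CPM in WT (0.44 ± 0.10, adjusted p = 0.0119). In KO it rose from 365 and 435 CPM to 509.8 and 499.5 CPM (0.33 ± 0.10, adjusted p = 0.0376). Fermt2, which encodes kindlin-2, the partner of talin at the integrin tail, rose by 0.40 ± 0.09 in WT and 0.32 ± 0.09 in KO (adjusted p = 0.00956 and 0.0264). Parva, which encodes alpha-parvin, gave 0.10 ± 0.07 and 0.03 ± 0.07 and did not pass the test in either genotype (adjusted p = 0.306 and 0.81).

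**Figure D3:**
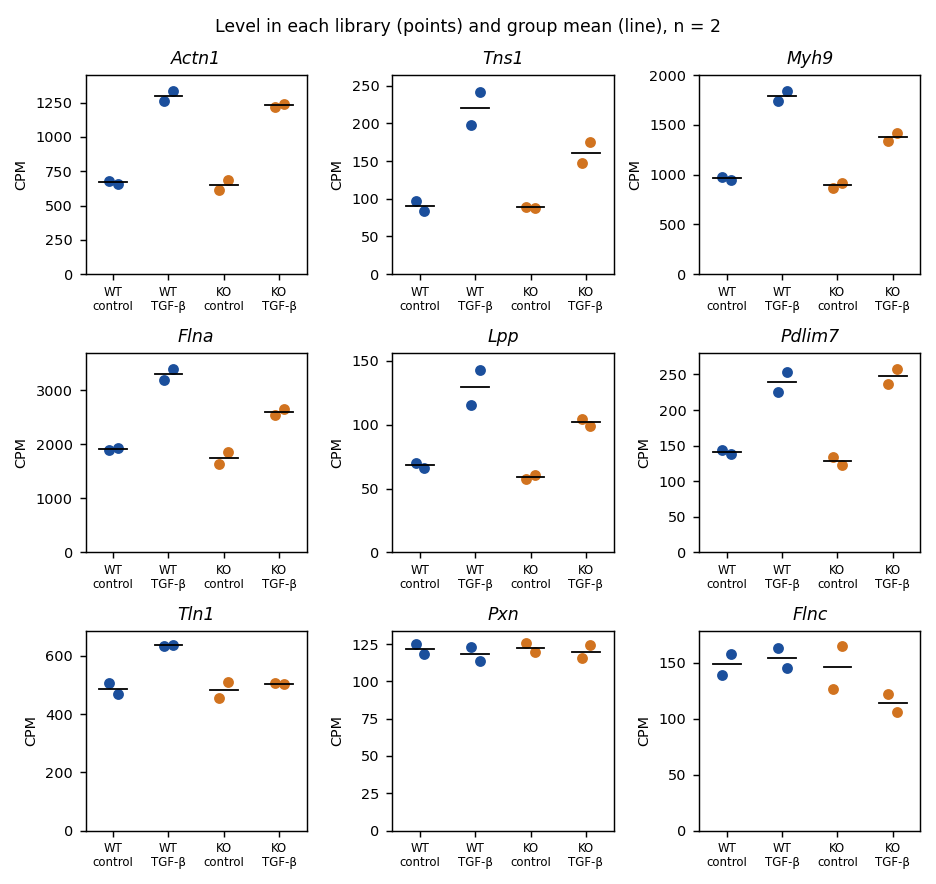
CPM of 9 of the genes in each library (points) with the mean of the 2 libraries of each group (line), WT in blue and KO in orange, each axis starting at 0. Actn1, Tns1, Myh9, Flna, Lpp and Pdlim7 are higher in every TGF-β library than in any control, Tln1 stands apart only in the WT TGF-β libraries, Pxn is level across the groups, and Flnc is lowest in the KO TGF-β libraries.

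The 12 LIM-domain adaptors held the most members past the fold limit, 6 of 12 in each genotype. In WT they were Lpp, Fblim1, Pdlim7, Csrp2, Csrp1 and Zyx, and in KO they were Csrp2, Pdlim7, Lpp, Fblim1, Tgfb1i1 and Csrp1. Without a fold limit 9 rose in WT and 10 in KO, and the median log2 fold change of the 12 was 0.59 and 0.61. Lpp, which encodes a zyxin-like protein of adhesions and smooth muscle, was at 70.3 and 66.1 CPM in WT control and 116 and 143 CPM in WT TGF-β. In KO it was at 57.2 and 60.3 CPM in controls and 104 and 99.4 CPM after TGF-β. Controls and TGF-β libraries were far apart in both genotypes, and the log2 fold change came to 0.92 ± 0.10 in WT (adjusted p = 0.000605) and 0.79 ± 0.10 in KO (adjusted p = 0.00146).

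Pdlim7, which encodes a PDZ and LIM protein that docks on alpha-actinin and actin fibres, went from 144 and 138 CPM to 225 and 253 CPM in WT. It went from 134 and 123 CPM to 237 and 258 CPM in KO. It rose by 0.76 ± 0.08 in WT and 0.94 ± 0.08 in KO (adjusted p = 0.000577 and 0.000327). Csrp2, which encodes a small cysteine- and glycine-rich LIM protein that binds actin, was at 29.9 and 40.9 CPM in WT control and 56.4 and 60.2 CPM in WT TGF-β. In KO it was at 29.2 and 24.6 CPM in controls and 51.3 and 59.3 CPM after TGF-β. The WT controls were the widest pair, and Csrp2 rose by 0.72 ± 0.15 in WT (adjusted p = 0.00875) and by 1.04 ± 0.15 in KO (adjusted p = 0.00255), the largest change of the 36 in KO. Without WT control replicate 1 the WT value was 0.51 and without WT TGF-β replicate 2 it was 0.65 with an adjusted p of 0.059.

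Its relative Csrp1 rose by 0.69 ± 0.09 and 0.63 ± 0.09 (adjusted p = 0.00126 and 0.00222), values that were 0.55 without WT TGF-β replicate 2 and 0.54 without KO TGF-β replicate 2, both under the fold limit. Fblim1, which encodes migfilin, a link between filamin and kindlin, rose by 0.80 ± 0.10 and 0.70 ± 0.10 (adjusted p = 0.00115 and 0.00249). The second value was 0.59 without KO TGF-β replicate 2.

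Zyx, which encodes zyxin, a protein that moves to strained stress fibres and recruits actin-building factors, was at 229 and 242 CPM in WT control and 320.5 and 403 CPM in WT TGF-β. It was at 216 and 197 CPM in KO control and 305 and 317 CPM in KO TGF-β. The log2 fold changes of 0.62 ± 0.11 in WT and 0.59 ± 0.11 in KO (adjusted p = 0.00413 and 0.00598) lie on either side of the fold limit by a small margin. Leaving out 1 library moved both across it. In WT it came to 0.43 when WT TGF-β replicate 2 was left out and to 0.58 when WT control replicate 1 was, and the KO value was 0.64 without KO control replicate 1 and 0.62 without KO TGF-β replicate 1. Tgfb1i1, which encodes Hic-5, a relative of paxillin, likewise rose by 0.55 ± 0.10 in WT and 0.65 ± 0.10 in KO (adjusted p = 0.00495 and 0.00316), and in WT it came to 0.68 when TGF-β replicate 1 was left out and to 0.65 when control replicate 2 was.

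Of the remaining adaptors, Pdlim5 rose by 0.39 ± 0.06 and 0.41 ± 0.06 (adjusted p = 0.00305 and 0.00291). Tes, which encodes testin, rose by 0.50 ± 0.13 and 0.53 ± 0.13 (adjusted p = 0.0225 and 0.0209), and passed the fold limit at 0.63 without WT TGF-β replicate 1 and at 0.69 without KO control replicate 1. Fhl2 rose by 0.57 ± 0.14 in KO (adjusted p = 0.0199) and gave 0.38 ± 0.14 in WT (adjusted p = 0.0634), where the value without WT control replicate 2 was 0.62 and past the limit. Lims1, which encodes PINCH-1, the LIM partner of integrin-linked kinase, gave 0.18 ± 0.07 and 0.14 ± 0.07 and did not pass the test (adjusted p = 0.0937 and 0.175). Pxn, which encodes paxillin, the best known adaptor of the focal adhesion, was level in CPM. It was at 125 and 118 CPM in WT control, 123 and 114 CPM in WT TGF-β, 126 and 119 CPM in KO control and 115 and 125 CPM in KO TGF-β. The log2 fold changes of Pxn were -0.04 (95% interval -0.20 to 0.12) in WT and -0.03 (-0.19 to 0.13) in KO, intervals that leave out changes as large as those of Lpp or Csrp1.

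Of the 8 kinases and signalling scaffolds, 4 rose in WT and 5 in KO, and those past the fold limit were Ptk2 and Mylk in WT and Mylk in KO. Ptk2 encodes focal adhesion kinase, the tyrosine kinase at the centre of adhesion signalling. It was at 71.6 and 67.9 CPM in WT control and 99.9 and 113 CPM in WT TGF-β, and at 69.2 and 70.3 CPM in KO control and 102 and 104 CPM in KO TGF-β. The 4 controls and the 4 TGF-β libraries formed separate ranges, and Ptk2 rose by 0.61 ± 0.07 in WT (adjusted p = 0.000758) and 0.56 ± 0.07 in KO (adjusted p = 0.00139). The WT value was under the fold limit at 0.50 when WT TGF-β replicate 2 was left out, at 0.55 without WT control replicate 2 and at 0.597 without KO control replicate 1.

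Mylk, which encodes the kinase that phosphorylates myosin light chains, was the member with the fewest reads, at 11.2 and 11.8 CPM in WT control and 19.2 and 18.3 CPM in WT TGF-β. In KO it was at 11.4 and 13.1 CPM in controls and 17.1 and 20.4 CPM after TGF-β. It rose by 0.71 ± 0.12 in WT and 0.62 ± 0.12 in KO (adjusted p = 0.00394 and 0.00836). The KO value was 0.46 with an adjusted p of 0.0705 without KO TGF-β replicate 2, 0.50 without KO control replicate 1 and 0.597 without WT control replicate 2.

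Rock2 and Limk1 encode kinases downstream of the small GTPases. Rock2 rose by 0.35 ± 0.07 in WT and 0.23 ± 0.07 in KO (adjusted p = 0.00605 and 0.038), and Limk1 by 0.36 ± 0.10 and 0.38 ± 0.10 (adjusted p = 0.0224 in both). Rock1, the sister of Rock2, gave 0.15 ± 0.06 and 0.09 ± 0.06 and did not pass the test (adjusted p = 0.0658 and 0.256). Bcar1, which encodes the scaffold p130Cas, rose in KO by 0.25 ± 0.06 (adjusted p = 0.0171) and gave 0.17 ± 0.06 in WT (adjusted p = 0.0647). Src and Ilk did not pass the test in either genotype. Src, the kinase that partners with focal adhesion kinase, gave 0.12 (95% interval -0.03 to 0.26) in WT and 0.07 (-0.07 to 0.22) in KO, and Ilk, integrin-linked kinase, 0.11 (-0.09 to 0.30) and 0.12 (-0.08 to 0.31).

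Myh9 (chr15:77760587-77842175, minus strand) encodes the heavy chain of non-muscle myosin IIA, the motor that tightens stress fibres. It was at 975 and 947 CPM in WT control and 1742 and 1843 CPM in WT TGF-β. It was at 869 and 912 CPM in KO control and 1338 and 1419.7 CPM in KO TGF-β. Every TGF-β library was above every control, and both WT TGF-β libraries were above both KO TGF-β libraries. Myh9 rose by 0.90 ± 0.07 in WT (adjusted p = 0.000226) and 0.63 ± 0.07 in KO (adjusted p = 0.00104), where it was 0.57 without KO TGF-β replicate 2 and 0.58 without KO control replicate 1. Myh10, the heavy chain of non-muscle myosin IIB, gave 0.13 ± 0.09 in WT and 0.01 ± 0.09 in KO (adjusted p = 0.295 and 0.965). Its 95% intervals, -0.07 to 0.33 and -0.20 to 0.21, lie below the values of Myh9.

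Of the 3 small GTPases, Rhob rose and the other two did not pass the test. Rhob, whose transcript is short-lived and induced early by many stimuli, was at 285 and 239 CPM in WT control and 354 and 399 CPM in WT TGF-β. It was at 316 and 262 CPM in KO control and 364 and 444 CPM in KO TGF-β. The controls differed by more within a pair than those of most other members, and the log2 fold change came to 0.52 ± 0.14 in WT and 0.48 ± 0.14 in KO (adjusted p = 0.022 and 0.0323). It passed the fold limit without replicate 1 of the controls or of the TGF-β libraries of the same genotype, at 0.65 and 0.61 in WT and at 0.61 and 0.62 in KO. Rhoa gave 0.09 ± 0.06 and 0.14 ± 0.06 (adjusted p = 0.331 and 0.136), and Rhoc 0.23 ± 0.08 and 0.17 ± 0.08 (adjusted p = 0.0532 and 0.136).

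Levels can be compared between genes only per length, for which the deposited FPKM values (fragments scaled by transcript length and library size) were used. In WT control Rhoa was the highest of the 36 at 206 ± 1.38 FPKM (SD, n = 2), followed by Flna at 163 ± 1.71, Actn1 at 139.6 ± 1.07, Csrp1 at 126 ± 8.14 and Rhob at 113 ± 10.2. Csrp1 and Rhob differed by less than the sum of their SDs, as did Ilk and Rhoc at 98.5 ± 0.418 and 98.3 ± 1.63. The lowest were Limk1 at 6.69 ± 0.143, Lpp at 4.13 ± 0.179 and Mylk at 1.18 ± 0.0244 FPKM. In WT TGF-β the first 3 were Flna at 254 ± 5.67, Actn1 at 240.3 ± 2.48 and Rhoa at 203 ± 3.9 FPKM, and Myh9 went from the 9th to the 5th place, at 157 ± 4.17. In WT, Flna and Actn1 thus stood above Rhoa in level after TGF-β, and below it in control. In KO TGF-β Actn1 stood above Rhoa (230 ± 11.9 against 208 ± 3.53 FPKM), and Flna did not (202 ± 2.82).

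Because related genes moved unequally, most of their ratios of FPKM differed between control and TGF-β libraries in both genotypes. Over the 4 controls and the 4 TGF-β libraries, the ratio of Myh9 to Myh10 was 1.74 ± 0.0891 (SD, n = 4) and 2.7 ± 0.119. That of Actn1 to Actn4 was 1.33 ± 0.0599 and 1.97 ± 0.0631, and that of Flna to Flnc was 13.1 ± 0.827 and 22.8 ± 1.84. That of Tns1 to Tns3 was 0.151 ± 0.0104 and 0.268 ± 0.0466, and that of Rhob to Rhoa was 0.572 ± 0.0496 and 0.739 ± 0.0484. In each of these, and for Pdlim7 to Pdlim5 (0.787 ± 0.0323 and 1.01 ± 0.0376), no control library reached the range of the TGF-β libraries. The ratio of Csrp1 to Csrp2, at 4.31 ± 0.737 and 3.68 ± 0.162, overlapped, as did that of Rhoc to Rhoa (0.484 ± 0.0115 and 0.512 ± 0.0203). Rock1 to Rock2, at 0.472 ± 0.0187 and 0.434 ± 0.00836, was lower after TGF-β without overlap. Each SD spans both genotypes. These ratios restate the changes above within a library and were given no test of their own.

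**Figure D4:**
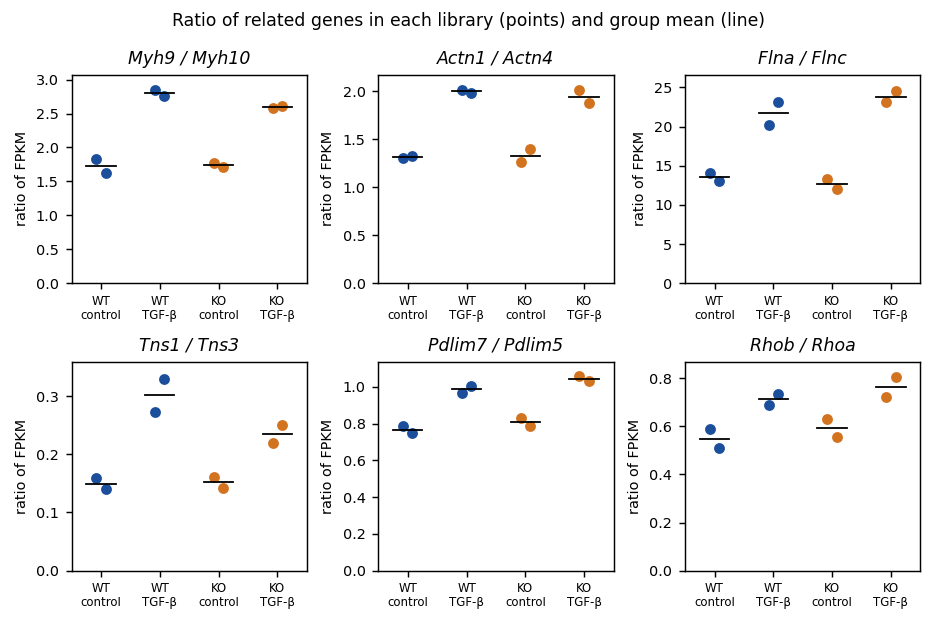
The ratio of FPKM of 6 pairs of related genes in each library (points) with the mean of the 2 libraries of a group (line), WT in blue and KO in orange, each axis starting at 0. In all 6 pairs the TGF-β libraries of both genotypes lie above all 4 controls.

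The effect of RGC-32 deletion was then examined by setting WT against KO within each treatment. Without TGF-β, few members stood apart between the genotypes. By edgeR 0 of the 36 passed the adjusted threshold, as against 0.0074% of all genes higher and 0.0296% lower in WT, and 1 had an unadjusted p under 0.05, as against 6.84%. That member was Csrp2, with a WT minus KO log2 difference of 0.40 ± 0.16 (unadjusted p = 0.0333, adjusted p = 0.691). DESeq2 and limma-voom also called 0, with 1 under an unadjusted p of 0.05 in each. The median difference of the 36 was 0.03, the difference was above 0 for 25 (52.4% of all genes), and the libraries did not overlap for 10 higher in WT and 1 lower (17.4% and 15.5% of all genes). Leaving out 1 library gave 0 to 4 members with an unadjusted p under 0.05, and the median was 0.07 without WT control replicate 2 and 0.06 without KO control replicate 2.

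After TGF-β the fitted level was higher in WT for most members, a balance that moved with single libraries, and 0 of the 36 passed the adjusted threshold by edgeR. In that comparison 0.0222% of all genes were called higher and 0.0222% lower. An unadjusted p under 0.05 was reached by 8 of the 36, as against 11.7% of all genes. The difference was above 0 for 29 (49.9% of all genes), with a median of 0.08, and both WT libraries lay above both KO libraries for 16 of the 36 (22.4% of all genes) and below them for 1, Bcar1 (23.9%). Without WT TGF-β replicate 2 the difference was above 0 for 23, the median was 0.02 and 4 had an unadjusted p under 0.05. Without WT TGF-β replicate 1 the median was 0.15, and without KO TGF-β replicate 2 it was 0.11 with 5 under that p. The lead was Myh9, higher in WT by 0.38 ± 0.07 (unadjusted p = 0.00095, adjusted p = 0.139), followed by Tln1 at 0.33 ± 0.07 (adjusted p = 0.183), Flna at 0.34 ± 0.09 (adjusted p = 0.222) and Tns1 at 0.45 ± 0.12 (adjusted p = 0.232). Lpp, Myh10 and Flnc gave 0.35 ± 0.10, 0.29 ± 0.09 and 0.44 ± 0.13 (adjusted p = 0.25, 0.28 and 0.286), and Bcar1 gave -0.15 ± 0.06 (adjusted p = 0.388). DESeq2, which the study also used, gave an adjusted p under 0.05 to 3 of them, at Myh9 0.38 (adjusted p = 0.00356), Flna 0.34 (adjusted p = 0.0246) and Tln1 0.33 (adjusted p = 0.0325), all under the fold limit of 0.6. With limma-voom 0 passed the adjusted threshold and 8 had an unadjusted p under 0.05. In this comparison the fibroblast and mural marker sums were also higher in WT (7342 and 8501 against 5406 and 5599.99 CPM, and 624 and 713 against 455 and 539.6 CPM). The astrocyte marker sums were lower in WT (3565 and 3439.8 against 4263 and 4555 CPM). The difference was above 0 for 5 of the 8 fibroblast markers tested, 3 of the 5 mural markers and 1 of the 10 astrocyte markers. Among fibroblast markers it was largest in Col1a2 (0.58 ± 0.13) and Col1a1 (0.54 ± 0.12), and Pdgfra gave -0.31 ± 0.14. The part of these markers in the result was not tested.

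**Figure D5:**
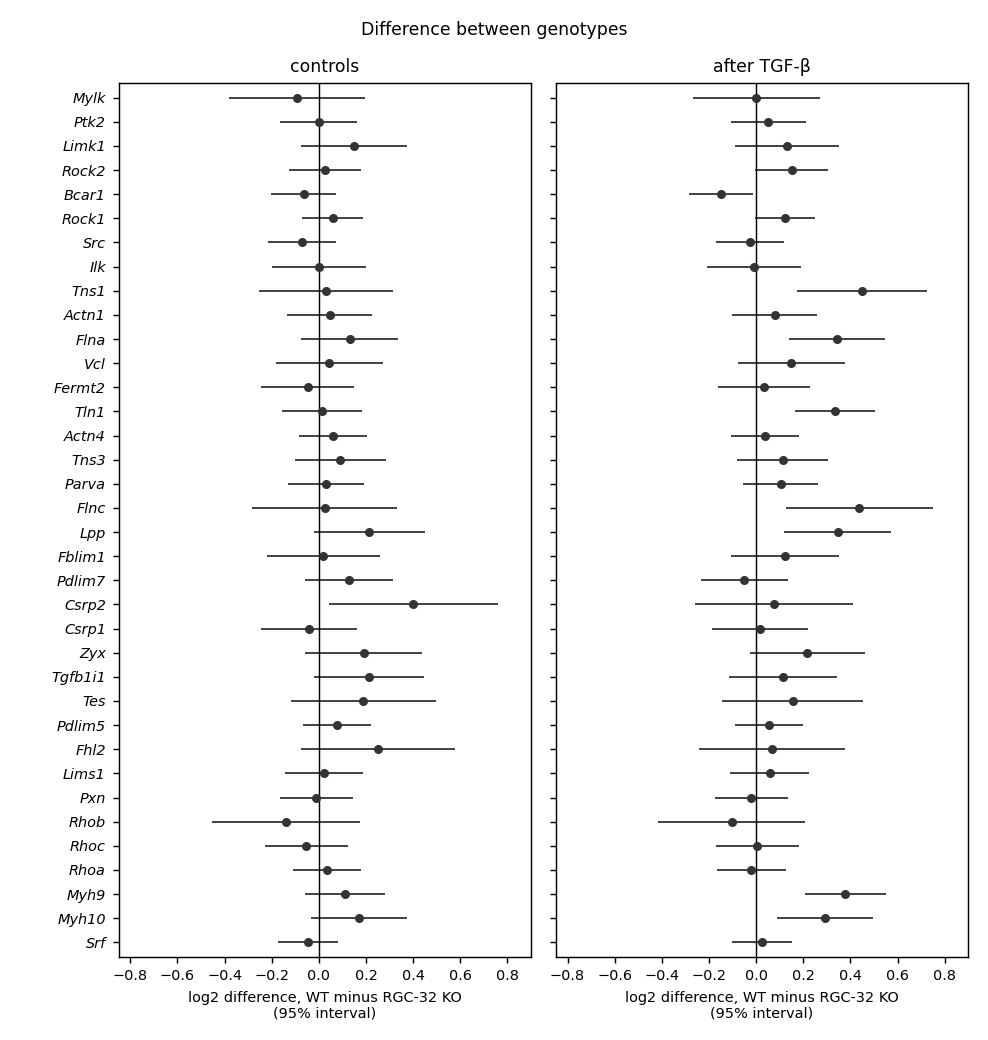
The WT minus KO log2 difference of each of the 36 genes with its 95% interval, in controls (left) and after TGF-β (right). In controls the intervals of 35 genes include 0, Csrp2 being the exception, and after TGF-β those of 8 genes leave out 0, 7 of them on the side higher in WT.

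Whether the response to TGF-β itself differed between the genotypes was tested by the interaction term. By edgeR 0 of the 36 passed the adjusted threshold (0% of all genes), and 3 had an unadjusted p under 0.05 (2.82% of all genes). These were Tln1, with a WT response larger by a log2 value of 0.32 ± 0.10 (unadjusted p = 0.0157), Myh9, larger by 0.27 ± 0.10 (unadjusted p = 0.0334), and Tns1, larger by 0.42 ± 0.17 (unadjusted p = 0.0407), each with an adjusted p of 1.00. DESeq2 gave 4 under an unadjusted p of 0.05 and limma-voom 3, and both called 0. Flnc followed at 0.41 ± 0.19 (unadjusted p = 0.0608). The fitted response was larger in WT for 24 of the 36 (47.7% of all genes) and larger in KO for 12, among them Csrp2 (-0.33 ± 0.21), Pdlim7 and Fhl2 (both -0.18), with a median of 0.05. Without WT TGF-β replicate 2 it was larger in WT for 16 of the 36 with a median of -0.03. The count was 20 and the median 0.02 without KO TGF-β replicate 1, so the balance between the genotypes moved with single libraries. Over all fits that left out 1 library the median ran from -0.03 to 0.12 and 1 to 4 members had an unadjusted p under 0.05. The 95% intervals, without adjustment for the number of genes, reached from 0.179 to 0.492 (median 0.275) to either side on the log2 scale. After adjustment over all genes, differences in response of that size or larger could go undetected. The 9 genes past the fold limit in both genotypes (Actn1, Csrp1, Csrp2, Fblim1, Lpp, Mylk, Myh9, Pdlim7 and Tns1), the 3 past it in WT alone (Flna, Ptk2 and Zyx) and the 1 past it in KO alone (Tgfb1i1) are therefore not shown to differ in response.

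The wider pathway was described by 62 other adhesion and actomyosin genes, of which 61 were tested. In WT 7 of them rose past the fold limit and 1 fell (7.72% and 5.65% of all genes), and without a fold limit 23 rose and 6 fell (18.6% and 14.3%), with a median log2 fold change of 0.13. In KO 6 rose and 1 fell past the limit (6.61% and 4.93% of all genes), and 17 rose and 6 fell without it (16.6% and 11.8%), with a median of 0.08. The counts past the limit thus lay near those of all genes. Pdlim1, a PDZ and LIM protein like Pdlim7, rose by 1.86 ± 0.23 in WT and 1.83 ± 0.23 in KO (adjusted p = 0.00106 and 0.0015). Nedd9, a scaffold related to Bcar1, rose by 1.10 ± 0.07 and 1.12 ± 0.07, and Nexn, an actin-binding protein, by 1.09 ± 0.11 and 1.20 ± 0.11. Limk2, which like Limk1 silences cofilin, rose by 0.62 ± 0.09 and 0.71 ± 0.09, and Lims2, the relative of Lims1, by 0.68 ± 0.18 and 0.63 ± 0.18. Ssh1, a phosphatase that reactivates cofilin, rose past the limit in WT (0.89 ± 0.11) and by 0.55 ± 0.11 in KO. Those that fell past it were Pdlim2 in WT (-0.67 ± 0.08, and -0.56 ± 0.09 in KO) and Myh14, the heavy chain of non-muscle myosin IIC, in KO (-0.61 ± 0.08, and -0.28 ± 0.08 in WT). Below the limit, Pdlim4, Sorbs3 and Myl12b fell in both genotypes, by 0.52, 0.40 and 0.54 in WT and by 0.46, 0.33 and 0.35 in KO on the log2 scale.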

How the data were processed

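Per the labels and the methods, unstranded libraries were aligned with STAR (build mm10), and the counting program and annotation release are not given in the sources used here. The authors deposited whole-number read counts for 13937 genes and FPKM values from Cufflinks for 18644 genes. They also deposited their own comparisons, with log2 fold changes and p-values, which were not used.

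The tests used edgeR 4.0.16 in R 4.3.3, after filterByExpr and TMM scaling, with its quasi-likelihood test. All 8 libraries were fitted in 1 model of 4 group means, and p-values, two-sided, were adjusted over 13509 genes by the Benjamini-Hochberg method. The fold limit of 0.6 follows the study. SE comes from the test statistic, and CPM uses TMM-scaled library totals. A prior count of 2 was added on the log2 scale for the correlations between same-numbered libraries, and none for the heat map. Comparisons against a shared group (WT control, for example) share its libraries. The 2 libraries of a group differed beyond counting noise (chi-square over its degrees of freedom, 6.26 to 10.4). Without strand, reads from genes that overlap on opposite strands cannot be told apart, and how they were counted is not given. The procedure was tested on simulated counts with changes placed in the WT TGF-β group alone. Recovery was checked for the TGF-β response in WT, not for the genotype comparisons or the interaction. DESeq2 1.42.0 and limma 3.58.1 served as alternatives. Gene positions are from GENCODE M21 (GRCm38), promoters from RefSeq. Every member is named, and of the 62 other genes those past the fold limit or, up to 5 in each direction, with the largest changes, except 2 that are not reported here. The members and all gene lists were chosen with earlier results of these data known.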

Additional observations from a re-analysis of the deposited data

How the results depend on the processing

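The medians of the 36 genes stayed above 0 in both genotypes in every setting tried, and no called member changed direction. The number of members above 0, at 35 in WT and 34 in KO in the main fit, was lower in some settings. It was 33 and 29 with upper quartile scaling and 30 and 27 on the FPKM values. DESeq2, limma-voom, RLE scaling, no filter, at least 10 counts in every library and a fit on 4 libraries left 9 to 12 members past the fold limit. Upper quartile scaling gave medians of 0.30 in WT and 0.29 in KO and 6 members in KO, and turned the split of all genes from 1043 up and 763 down to 857 and 1055 in WT, and from 893 and 666 to 747 and 895 in KO. On the log2(FPKM + pseudocount) scale, tested with limma, the median of all genes was -0.11 in both genotypes (pseudocount 1), -0.06 in both without the filter on low values, and -0.13 in both (pseudocount 0.1, filtered). There 6 members rose past the limit in WT and 4 in KO (medians 0.25 and 0.19) with a pseudocount of 1, with or without the filter, and 6 and 5 (medians 0.26 and 0.19) with 0.1. Relative to all genes the medians in WT and KO were 0.36 and 0.30 with a pseudocount of 1, 0.30 and 0.25 with it and no filter, and 0.39 and 0.32 with 0.1. Pxn, level in CPM, was lower after TGF-β in FPKM. It went from 27.3 ± 1.28 to 24.4 ± 0.367 FPKM in WT (SD, n = 2) and from 27.8 ± 0.644 to 24.8 ± 0.935 in KO. Over all settings its lowest log2 fold change was -0.16 in either genotype. Bonferroni's correction left 2 in each genotype, and no limit on size gave 22 and 23 (14 to 23 and 12 to 22 when 1 library was left out). Leaving out 1 library gave 8 members (without WT TGF-β replicate 2) to 15 (without WT TGF-β replicate 1) in WT, with medians of 0.33 to 0.44, and 6 (without KO TGF-β replicate 2) to 13 (without KO TGF-β replicate 1) in KO, with medians of 0.32 to 0.40. Such fits assume that the lone library varies like the other groups. Counts of genotype differences and interactions past the fold limit were 0 throughout. Deviations of same-numbered libraries correlated positively between the genotypes within a treatment, at r = 0.49 in controls and 0.25 after TGF-β. Between control and TGF-β groups every r was negative, from -0.51 to -0.34. A number thus did not mark the same deviation in all groups, and the samples were not taken as paired. With the replicate number as a block over all groups, 12 members rose in WT and 10 in KO, as without it. Such a block gives a number the same shift in every group, so it cannot take up opposite signs. Pairing of WT with KO within a treatment, which bears on the genotype comparisons, was not tested.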

Other observations

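Among the wider list, Myl12a and Myl12b, which encode near-identical regulatory light chains of non-muscle myosin II, went in opposite directions in both genotypes by edgeR. Myl12a rose by 0.44 ± 0.09 (SE) in WT and 0.59 ± 0.09 in KO on the log2 scale, and Myl12b fell by 0.54 and 0.35. The pair was chosen after its values were seen, and since reads can be split between such close copies, each value is uncertain.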
